A study of Mus musculus with 18 samples.

Results

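The genes described here are the 5 enzymes that carry glycolysis from the triose phosphates to pyruvate (*Tpi1*, *Gapdh*, *Pgk1*, *Pgam1* and *Pkm*, with the enolase step left out) and the 4 *Pfkfb* genes that set the pace of the pathway above them. They were chosen by name, as the rows of the count table that carry these 9 symbols among 55491 rows, and all 9 passed the filter on low counts in every fit. The rule used no measured value, although earlier results of these data were known when these genes were picked. Mouse tail tendon fibroblasts (TFs) were kept for 4 days in 20% or 1% O2 and their polyadenylated RNA was sequenced, giving 18 libraries in 6 groups of 3. Ctrl TFs were taken from mice without Cre, which the labels call wild-type. The paper's methods describe its Cre-negative Ctrl mice as homozygous for floxed *Hif1a*, on a mixed strain background. cKO TFs came from mice in which Cre under the control of *Scx*, a tendon transcription factor, recombines floxed *Hif1a* in cells that have switched on *Scx*. The paper notes that this Cre does not limit recombination perfectly to TFs. Recombination was not measured in these libraries. The third arm was Ctrl TFs given Cre gesicles, vesicles that carry the Cre protein into cells, and these TFs were cultured at the same O2 levels. All TFs grew out of tail tendon of male and female mice 4 to 6 months old and were passaged on plastic before the experiment. The comparison asks how far O2 sets the RNA of this part of glycolysis, and whether that depends on *Hif1a*.

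Triosephosphate isomerase (*Tpi1*) turns dihydroxyacetone phosphate into glyceraldehyde 3-phosphate. Glyceraldehyde 3-phosphate dehydrogenase (*Gapdh*) oxidizes it and makes NADH, phosphoglycerate kinase (*Pgk1*) makes the first ATP of the pathway's pay-off phase, phosphoglycerate mutase (*Pgam1*) moves the remaining phosphate, and pyruvate kinase (*Pkm*) makes pyruvate and a further ATP. The *Pfkfb* genes encode bifunctional enzymes that both make and break down fructose 2,6-bisphosphate, the strongest known activator of phosphofructokinase. The protein of *Pfkfb3* is known for high kinase over phosphatase activity, whereas *Pfkfb1*, *Pfkfb2* and *Pfkfb4* were first described in liver, heart and testis. In low O2 the transcription factor HIF-1, whose α subunit *Hif1a* encodes, binds a short core sequence near many of these genes in other cell types.

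Levels are given as CPM, the counts of a gene scaled to a common library size, after TMM scaling of the 18 libraries together. Library totals lay between 26967440 and 51806453 counts, except in cKO 1% O2 replicate 1, which had 6857558. A floor of 3 counts corresponded to 0.0592 to 0.108 CPM in the other libraries and to 0.426 CPM in that one, and it covers counting error only. The 9 genes took 0.356% to 0.466% of all counts in 20% O2 libraries and 0.602% to 1.04% in 1% O2 libraries. Tendon markers were present (*Scx* from 6.19 to 21.5 CPM and *Tnmd*, a tendon membrane protein, from 35.0 to 210.0 CPM), while of the markers of other cell types *Ptprc* (leukocytes), *Pecam1* (endothelium), *Pax7* (muscle), *Krt5* (epidermis) and *Adipoq* (fat) stayed below 0.3 CPM in every library. Other markers of the same lists were present, with *Lyz2* (macrophages) at 8.57 to 22.2 CPM, *Acta1* (muscle) at 9.32 to 41.8, *Krt10* (epidermis) at 3.27 to 8.10, *Tek* (endothelium) at 11.3 to 76.5 and the pericyte and smooth muscle markers *Cspg4* and *Myh11* at up to 74.0 and 64.8 CPM. Of the chondrocyte list, *Comp* was at 184 to 877 CPM and *Col2a1* at 0 to 3.68 CPM, while *Acan* and *Col9a1* reached at most 0.0232 and 0.0295 CPM. The *Hif1a* gene itself was not lower in libraries labelled cKO. It was at 405, 294 and 431 CPM in cKO 20% O2 against 335, 339 and 371 CPM in Ctrl 20% O2, and at 427, 398 and 503 CPM in cKO 1% O2 against 488, 365 and 406 CPM in Ctrl 1% O2. Counts summed over a whole gene do not measure the loss of a single exon, so they do not check the deletion. By quantitative PCR, after a longer culture, the paper reports reduced *Hif1a* in tail TFs from cKO mice. The *Cre* row of the table was at 0.0358 to 0.127 CPM in cKO 20% O2 and at 0 to 0.0750 CPM in cKO 1% O2, and at 0 in every Ctrl and gesicle library, levels around the 3-count floor.

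The genes lie on 6 chromosomes of GRCm38 (GENCODE M21). *Tpi1* (chr6:124810586-124814296) and *Gapdh* (chr6:125161715-125166467) are on the minus strand of chromosome 6. *Pkm* (chr9:59656368-59679375) and *Pfkfb4* (chr9:108991778-109032228) share the plus strand of chromosome 9, and *Pgk1* (chrX:106187100-106203699) and *Pfkfb1* (chrX:150588229-150643878) that of chromosome X. *Pgam1* (chr19:41911923-41918660) is on the plus strand, and *Pfkfb2* (chr1:130689182-130729253) and *Pfkfb3* (chr2:11471433-11554077) are on the minus strand. RefSeq promoter windows of GRCm38.p6, which run from 250 bases before to 50 bases after a transcription start, were given for all 9 genes, 16 windows in all. They were searched on both strands for the HIF core letters ACGTG and GCGTG. At least 1 match was found in 11 of the 16 windows, against 43.8% of all 32851 windows in the table. By gene, 8 of the 9 had a match in any window. That share of windows is no background for the gene count, since some genes have several windows. The stretches below are shown because they set 4 genes that rose in 1% O2 beside 1 that rose with no match and 1 that was not called with 4 matches. Each runs 5′ to 3′ on the gene's strand and holds no annotated exon, and the letters in capitals are matches or their reverse complement.
*Pgk1* (chrX:106186850-106187099, plus strand): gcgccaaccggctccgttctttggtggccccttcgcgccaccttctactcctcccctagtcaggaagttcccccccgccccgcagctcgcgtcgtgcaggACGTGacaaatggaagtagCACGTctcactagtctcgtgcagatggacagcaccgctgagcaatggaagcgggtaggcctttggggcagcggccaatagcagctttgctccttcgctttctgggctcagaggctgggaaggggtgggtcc
*Pgam1* (chr19:41911621-41911870, plus strand): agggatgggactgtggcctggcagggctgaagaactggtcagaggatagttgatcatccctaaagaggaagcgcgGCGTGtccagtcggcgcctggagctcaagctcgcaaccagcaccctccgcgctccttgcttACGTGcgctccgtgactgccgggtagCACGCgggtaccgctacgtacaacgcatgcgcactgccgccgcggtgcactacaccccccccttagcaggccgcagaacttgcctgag
*Gapdh* (chr6:125165774-125166023, minus strand): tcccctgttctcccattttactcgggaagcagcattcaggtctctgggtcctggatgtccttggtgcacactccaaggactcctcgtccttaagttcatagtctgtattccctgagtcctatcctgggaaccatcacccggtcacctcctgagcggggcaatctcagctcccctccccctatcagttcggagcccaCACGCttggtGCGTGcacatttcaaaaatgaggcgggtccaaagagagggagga
*Pfkfb3*, inner start (chr2:11502102-11502340, minus strand): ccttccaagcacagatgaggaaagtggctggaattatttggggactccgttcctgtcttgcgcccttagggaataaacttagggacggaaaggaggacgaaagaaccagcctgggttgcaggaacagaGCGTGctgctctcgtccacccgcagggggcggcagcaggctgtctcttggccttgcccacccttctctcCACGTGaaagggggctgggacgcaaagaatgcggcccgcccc
*Tpi1* (chr6:124814297-124814408, minus strand): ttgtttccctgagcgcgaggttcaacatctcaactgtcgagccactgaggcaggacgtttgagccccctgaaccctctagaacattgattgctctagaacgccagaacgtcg
*Pfkfb2*, first of 3 starts (chr1:130715822-130716071, minus strand): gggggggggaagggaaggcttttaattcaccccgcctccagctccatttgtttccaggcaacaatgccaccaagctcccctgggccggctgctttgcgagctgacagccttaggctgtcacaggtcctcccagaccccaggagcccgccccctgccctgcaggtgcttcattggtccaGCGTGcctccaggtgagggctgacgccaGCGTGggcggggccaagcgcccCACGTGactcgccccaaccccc

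The *Pgk1* stretch holds ACGTG on both strands, the first beginning 150 bases before the start and the second 131 bases before it. In *Pfkfb3* and *Pfkfb2* the ACGTG matches of both strands overlap in 1 palindrome, CACGTG, which is also the E-box read by other factors. The *Pfkfb2* start shown is first in the order listed, and another of its starts lies further upstream. All the *Pfkfb2* windows lie inside the annotated gene. *Tpi1*, which rose in all 3 arms, had no match in its whole 300-base window. A match is a description of letters, and no binding was measured.

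In Ctrl TFs, 6 of the 9 genes were higher in 1% than in 20% O2 and none was lower, where 1.47% of the 15850 genes tested were called higher. These were all 5 enzymes and *Pfkfb3*, and for each of them all 1% O2 libraries were above all 20% O2 libraries, as held for 16.6% of genes tested. The same separation held for 5 of the 9 genes in cKO TFs (10.5% of genes tested) and for 6 of the 9 with gesicles (13% of genes tested). A gene was called at an adjusted p under 0.05 (edgeR quasi-likelihood test, Benjamini-Hochberg over all genes tested) if it also changed by 1.5-fold or more. The median log2 fold change of the 9 genes was 1.01, beside 0.00 over all genes. In cKO TFs 4 of the 9 were called higher (background 1.4%), with a median of 0.66 beside -0.03, and in gesicle-treated Ctrl TFs 4 of the 9 (background 1.64%), with a median of 0.58 beside -0.02. The same 4 genes were called in these 2 arms, *Tpi1*, *Pgk1*, *Pgam1* and *Pfkfb3*. More RNA per cell and more cells with the RNA cannot be told apart in bulk libraries.

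**Figure D1:**
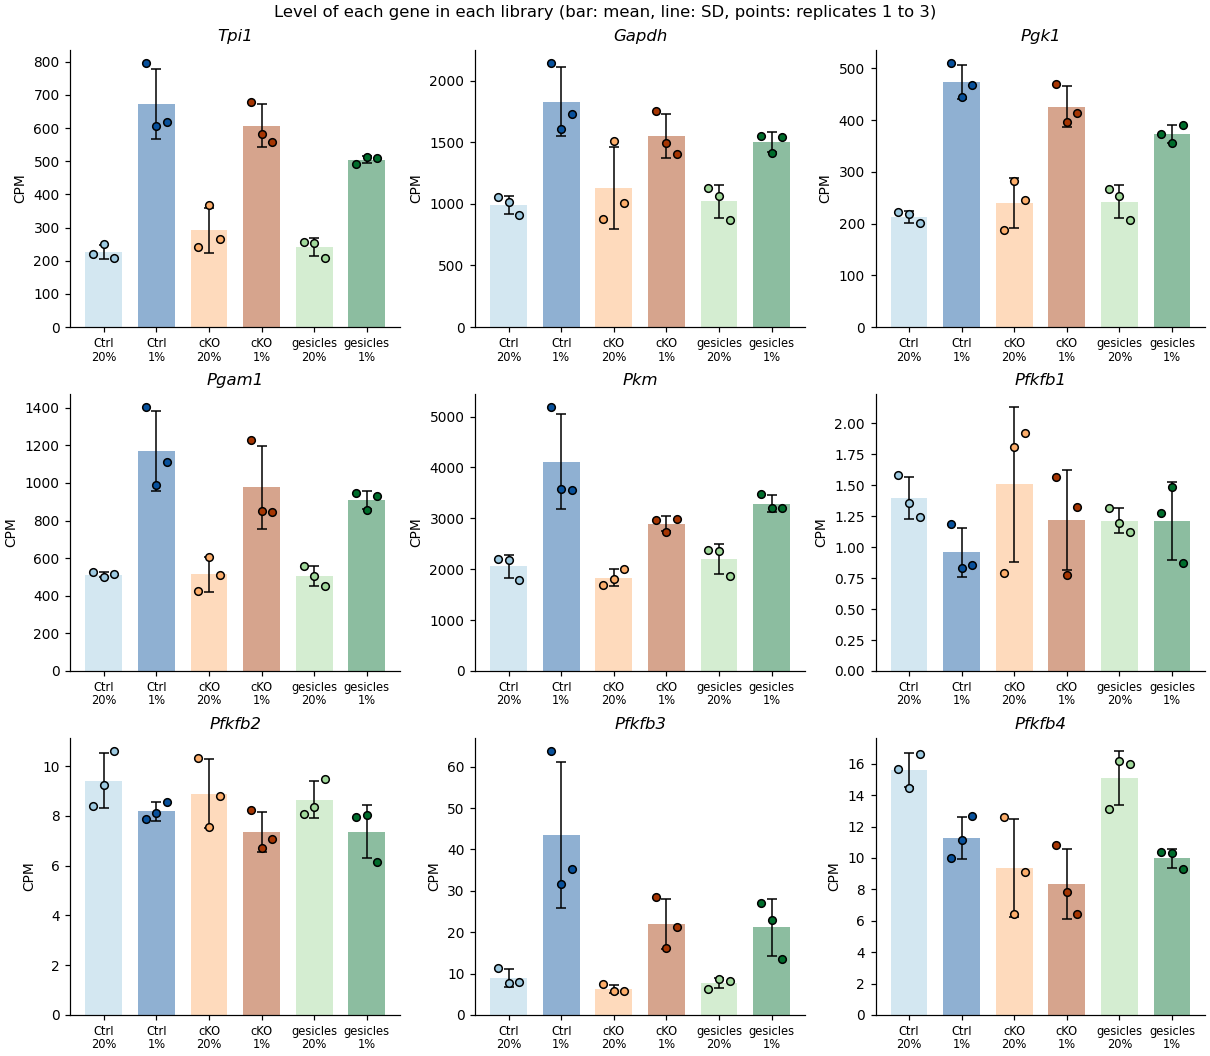
Level of each gene (CPM, y axis from 0) in the 6 groups on the x axis, with a bar for the mean, a line for the SD and 1 point per library. The 3 Ctrl libraries in 1% O2 sit above the 3 in 20% O2 for the 5 enzymes and *Pfkfb3*, and *Pfkfb3* spans 31.6 to 63.8 CPM among them.

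*Pfkfb3* had the largest change of the 9 genes in each arm. In Ctrl TFs it was at 11.3, 7.62 and 7.85 CPM in 20% O2 and at 63.8, 31.6 and 35.3 CPM in 1% O2. The lowest 1% library was thus well above the highest 20% library, and replicate 1 was the highest at both O2 levels. The log2 fold change was 2.29 ± 0.29 (SE, n = 3 per group), a 4.90-fold rise, with adjusted p = 0.00158 in edgeR. Among all genes tested, 99.4% had a smaller log2 fold change. In cKO TFs *Pfkfb3* went from 7.46, 5.68 and 5.80 CPM to 28.4, 16.3 and 21.4 CPM, again with no overlap. It rose there by 1.80 ± 0.29 on the log2 scale (edgeR adjusted p = 0.0094). With gesicles it went from 6.35, 8.62 and 8.20 CPM to 27.1, 22.8 and 13.5 CPM, which did not overlap either but left replicate 3 lower than the others in 1% O2. *Pfkfb3* rose there by 1.45 ± 0.30 on the log2 scale (edgeR adjusted p = 0.0158).

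*Tpi1* rose most among the enzymes. It measured 221, 251 and 209 CPM in Ctrl 20% O2 and 796, 608 and 617 CPM in Ctrl 1% O2. Every 1% library was more than double every 20% library, and *Tpi1* rose by 1.58 ± 0.18 on the log2 scale (edgeR adjusted p = 6.3e-04). In cKO TFs it measured 242, 368 and 266 CPM against 680.2, 583 and 558 CPM. Replicate 2 stood above the other cKO libraries in 20% O2, and the groups still did not overlap (log2 fold change 1.06 ± 0.18, edgeR adjusted p = 0.0100). Gesicle-treated TFs were at 257, 255 and 209 CPM in 20% O2 and at 492, 513 and 509 CPM in 1% O2, where the 3 libraries lay close together (log2 fold change 1.07 ± 0.16, edgeR adjusted p = 0.00127).

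*Pgk1* and *Pgam1* followed with a little over 2-fold rises in Ctrl TFs. *Pgk1* measured 222, 218 and 200.3 CPM in 20% O2 and 509.9, 445 and 468 CPM in 1% O2, a log2 fold change of 1.16 ± 0.15 (edgeR adjusted p = 0.0016). In cKO TFs *Pgk1* measured 188, 283 and 246 CPM against 470.2, 395 and 413 CPM (0.84 ± 0.15 on the log2 scale, edgeR adjusted p = 0.0142). The ranges did not overlap in either genotype, and in cKO TFs the 20% O2 libraries were the more spread. With gesicles *Pgk1* measured 267, 254 and 206 CPM against 373, 356 and 391 CPM, which kept the groups apart at the smallest of the 3 changes (0.62 ± 0.14 on the log2 scale, edgeR adjusted p = 0.0224). *Pgam1* measured 524, 497 and 515 CPM in Ctrl 20% O2 and 1404, 990.3 and 1111 CPM in Ctrl 1% O2 (log2 fold change 1.20 ± 0.19, edgeR adjusted p = 0.00692). Replicate 1 in 1% O2 stood above the other two. In cKO TFs it went from 423, 608 and 510.5 CPM to 1229, 853 and 846 CPM (0.93 ± 0.19 on the log2 scale, edgeR adjusted p = 0.0279). With gesicles it went from 558, 506 and 451 CPM to 947, 855 and 929 CPM (0.85 ± 0.17 on the log2 scale, edgeR adjusted p = 0.0117). Neither arm had overlapping groups.

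*Pkm* had the most counts of the 9 genes. In Ctrl TFs it was at 2198, 2181 and 1785 CPM in 20% O2 and at 5187, 3582 and 3563 CPM in 1% O2, a 2.01-fold rise (log2 fold change 1.01 ± 0.17, edgeR adjusted p = 0.00883). The difference exceeded the spread between replicates, although replicate 1 alone reached 5187 CPM. In cKO TFs *Pkm* was at 1687, 1813 and 2008 CPM against 2959, 2723 and 2996 CPM, and with gesicles at 2387, 2351 and 1863 CPM against 3474, 3199 and 3201 CPM. Both pairs of groups were apart, but the changes of 0.66 ± 0.17 and 0.58 ± 0.15 on the log2 scale missed the threshold, with edgeR adjusted p = 0.0585 and 0.0509. *Pkm* was called in cKO TFs by DESeq2 (0.67, adjusted p = 0.00343), and by edgeR with no filter (adjusted p = 0.0378), with the other groups in the fit (0.0245) and with the nested block (0.0421). With gesicles it was called under 4 alternatives, with adjusted p from 0.0132 with limma voom to 0.0426 with edgeR and no filter. The counts sum the transcripts of a gene, so the *Pkm* splice forms that give the M1 and M2 kinases were not separated. Of the 4 factors known to steer that splicing or bind the transcript (*Ptbp1*, *Hnrnpa1*, *Hnrnpa2b1* and *Srsf3*), none was called in any arm, and in Ctrl TFs they ran from -0.24 for *Hnrnpa1* to 0.13 for *Hnrnpa2b1* on the log2 scale.

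*Gapdh* had the smallest rise among the enzymes in each arm. In Ctrl TFs it was at 1054, 1015 and 913 CPM in 20% O2 and at 2144, 1612 and 1734 CPM in 1% O2. The groups did not overlap, and *Gapdh* rose by 0.89 ± 0.20 on the log2 scale (edgeR adjusted p = 0.0393). The replicate number as a block ended that call (0.89, edgeR adjusted p = 0.0566). In cKO TFs *Gapdh* was at 877, 1510.3 and 1011 CPM against 1754, 1496 and 1409 CPM, and the 20% O2 library of replicate 2 lay inside the 1% O2 range. The change was 0.46 ± 0.20 (edgeR adjusted p = 0.223), and without that library it was 0.74 (edgeR adjusted p = 0.0153). Gesicle-treated TFs were at 1127, 1064 and 869.6 CPM against 1550.2, 1411 and 1545 CPM, which did not overlap (0.56 ± 0.18 on the log2 scale, edgeR adjusted p = 0.106).

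**Figure D2:**
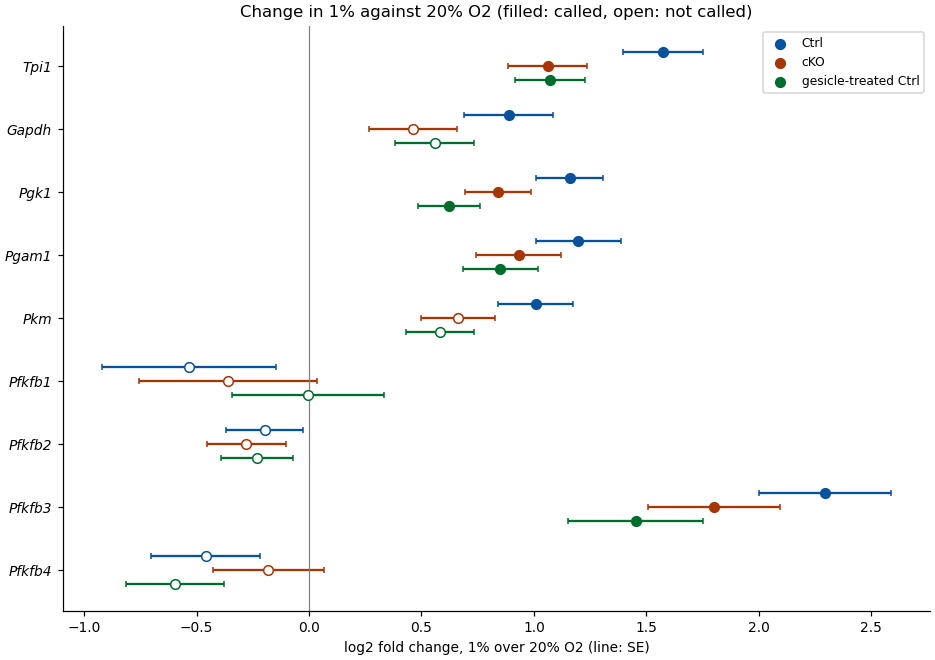
Log2 fold change in 1% against 20% O2 (x axis, with the SE as a line) of each gene (y axis) in Ctrl, cKO and gesicle-treated Ctrl TFs, filled where called and open where not. The Ctrl point lies to the right of both others for the 5 enzymes and *Pfkfb3*, from 0.89 for *Gapdh* to 2.29 for *Pfkfb3*, and the other *Pfkfb* genes lie at or below 0.

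The calls were close to the threshold in several places. Leaving out 1 of the 12 Ctrl and cKO libraries at a time kept *Tpi1*, *Pgk1*, *Pgam1* and *Pfkfb3* called in Ctrl TFs each time. *Gapdh* was lost in 9 of 12 cases, with edgeR adjusted p up to 0.16, and *Pkm* once, without Ctrl 20% O2 replicate 3 (edgeR adjusted p = 0.0514). In cKO TFs no gene of the 9 was called without cKO 20% O2 replicate 3, where the edgeR adjusted p of the 4 genes lay between 0.0598 and 0.107 and their log2 fold changes between 0.86 and 1.74. *Pgam1* was also not called there without cKO 20% O2 replicate 1 (edgeR adjusted p = 0.096), without cKO 1% O2 replicate 1, the smallest library (0.0823), or without cKO 1% O2 replicate 2 (0.0502). With gesicles *Tpi1* was kept in all 18 cases. *Pfkfb3* was lost there without any 1 of the gesicle libraries except 1% O2 replicate 3 (edgeR adjusted p from 0.0547 to 0.0611), with the groups alone (0.0714) and with thinned counts (0.0527). The count of called genes was 1 there without gesicle 20% O2 replicate 2 or 3 and 2 without gesicle 1% O2 replicate 2 or 3. Summed over its 4 markers, the endothelial list was lower in 1% O2, at 27.9 to 45.5 CPM in Ctrl 20% O2 and 11.5 to 27.6 CPM in Ctrl 1% O2, nearly all of it *Tek*. *Pecam1*, *Cdh5* and *Kdr* stayed below 0.7 CPM. The 3 pericyte and smooth muscle markers summed to 86.5 to 144 CPM in Ctrl 20% O2 and 39.9 to 86.6 CPM in Ctrl 1% O2. With gesicles, *Kdr* was called lower in 1% O2 (-4.28 on the log2 scale, edgeR adjusted p = 0.0339) and the pericyte marker *Rgs5* higher (1.09, edgeR adjusted p = 0.0235). The part of these lists in the results was not tested.

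The other 3 *Pfkfb* genes were not called by the main edgeR fit in any arm, though some alternatives called 2 of them lower. *Pfkfb4* was at 15.7, 14.5 and 16.6 CPM in Ctrl 20% O2 and at 9.99, 11.1 and 12.7 CPM in Ctrl 1% O2, and with gesicles at 13.1, 16.2 and 16.0 CPM against 10.4, 10.3 and 9.30 CPM. In both arms every 1% O2 library was below every 20% O2 library, as for 13.4% and 11% of genes tested, with log2 fold changes of -0.46 ± 0.24 (edgeR adjusted p = 0.386) and -0.60 ± 0.22 (edgeR adjusted p = 0.16). With gesicles *Pfkfb4* was called lower by limma voom (-0.61, adjusted p = 0.0213) and by edgeR without the cKO groups in the fit (-0.59, adjusted p = 0.0337). In cKO TFs it was at 12.6, 6.41 and 9.11 CPM against 10.8, 7.83 and 6.43 CPM, ranges that overlapped almost fully (log2 fold change -0.18 ± 0.25, edgeR adjusted p = 0.726). *Pfkfb2* ranged from 6.14 to 10.6 CPM over all 18 libraries and changed by -0.20, -0.28 and -0.23 on the log2 scale in Ctrl, cKO and gesicle-treated TFs. With gesicles its highest 1% O2 library (8.02 CPM) lay just below its lowest 20% O2 library (8.09 CPM). *Pfkfb1*, the liver gene, was barely expressed, at 0.777 to 1.93 CPM and 11 to 85 counts a library, and its changes of -0.53, -0.36 and -0.003 had SEs of 0.34 to 0.40. Its Ctrl libraries did not overlap, at 1.25 to 1.58 CPM in 20% O2 and 0.834 to 1.19 CPM in 1% O2. In cKO TFs limma voom called *Pfkfb1* lower, at -0.94 (adjusted p = 0.0241).

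The make-up of the family differed between O2 levels. As a share of the 4 genes in counts per kilobase of merged exons, which allows levels of different genes to be set side by side, *Pfkfb4* led in every 20% O2 library and *Pfkfb3* in every 1% O2 library except gesicle 1% O2 replicate 3. In Ctrl TFs *Pfkfb4* held 51.3% to 54.8% in 20% O2 and 17.3% to 30.1% in 1% O2, while *Pfkfb3* went from between 16.7% and 23.9% to between 53.7% and 71.1%. In cKO TFs *Pfkfb3* went from 19.3% ± 1.71 to 48.7% ± 4.03 (SD, n = 3), and with gesicles from 18.1% ± 1.20 to 44.5% ± 6.47. In the exception *Pfkfb4* stood at 40.1% and *Pfkfb3* at 37.6%. The shares sum to a whole, so 1 gene's rise lowers the others. In CPM, *Pfkfb4* and *Pfkfb2* moved far less than *Pfkfb3*. Plain counts, or counts per kilobase of the longest coding transcript, an alternative chosen after the data were seen, put the mean *Pfkfb3* share in Ctrl 1% O2 at 66.5% and 60.4%, beside 59.5% on merged exons. The leading gene depended on the scale in 2 libraries, and lower ranks depended on it in others, as for *Pfkfb2* and *Pfkfb4* in cKO 1% O2 replicate 3. *Pfkfb3* led in gesicle 1% O2 replicate 3 on plain counts (45.3% against 31.2% for *Pfkfb4*) and per coding transcript (38.4% against 36.4%), and on plain counts *Pfkfb2* (35.2%) led *Pfkfb4* (29.9%) in cKO 20% O2 replicate 2.

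**Figure D3:**
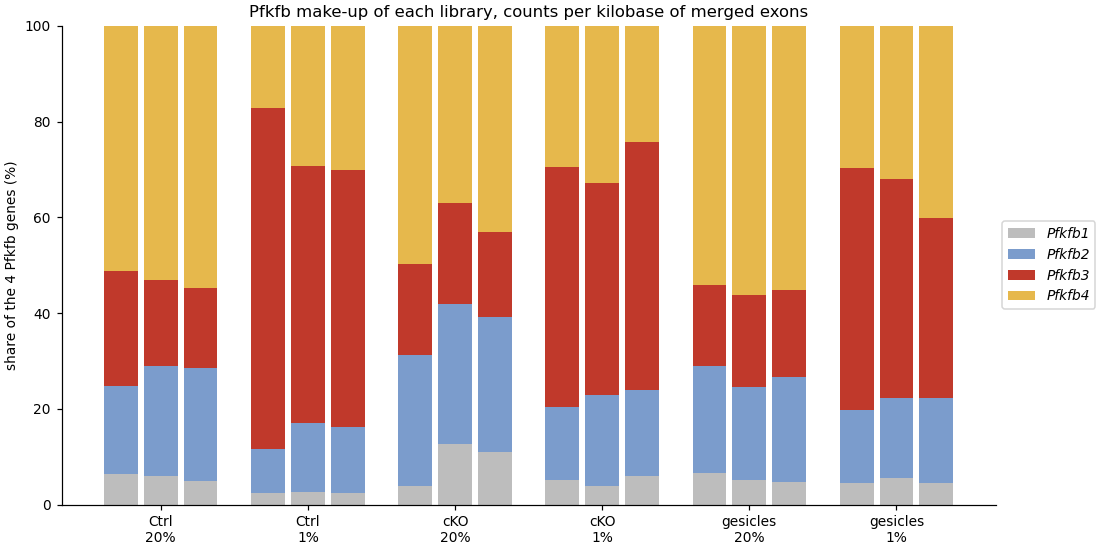
Share of each *Pfkfb* gene in the sum of the 4 (y axis, percent, counts per kilobase of merged exons), 1 stacked bar per library, by group on the x axis. *Pfkfb4* holds 51.3% to 54.8% of the bars of Ctrl 20% O2, and *Pfkfb3* 53.7% to 71.1% of those of Ctrl 1% O2.

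Between enzymes, levels per kilobase of merged exons gave *Pkm* as the highest in each group, while per kilobase of the longest coding transcript *Gapdh* was above it in cKO 20% O2. Per kilobase of merged exons the means in Ctrl 20% O2 were 411 CPM for *Pkm*, 258 for *Pgam1*, 240.5 for *Gapdh*, 95.1 for *Pgk1* and 82.5 for *Tpi1*. *Pgam1* and *Gapdh* differed there by less than a change of gene model does, since *Gapdh* has annotated retained introns (4133 bases of merged exons against 1420 in its longest coding transcript) and stood at 699.9 per kilobase of that transcript against 288 for *Pgam1*. The same holds for *Tpi1* and *Pgk1*, whose order was reversed at 141 and 117 per kilobase of coding transcript. The 4 *Pfkfb* genes were far below all of them, between 0.347 for *Pfkfb1* and 3.20 for *Pfkfb4* per kilobase of merged exons.

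*Gapdh* is often used as a reference gene, so its change was set beside those of 12 other genes of that use, among them *Actb* (cytoskeletal actin) and *Polr2a* (the large subunit of RNA polymerase II). None of the 12 was called in any arm. Their median log2 fold changes were -0.00 in Ctrl, -0.11 in cKO and -0.11 in gesicle-treated TFs, and the most extreme in Ctrl TFs were *Polr2a* at -0.85 ± 0.31 (edgeR adjusted p = 0.207) and *Gusb*, a lysosomal enzyme, at 0.12 ± 0.13. The ratio of *Gapdh* to *Actb* counts within a library was 0.671 to 0.877 in Ctrl 20% O2 and 1.65 to 1.84 in Ctrl 1% O2. In cKO TFs the same ratio was 0.794 to 1.06 and 0.991 to 1.28, which overlapped, whereas the ratios to *Hprt*, a purine salvage enzyme, did not (6.17 to 6.29 and 9.03 to 9.52), nor did those to the ribosomal *Rplp0* (1.82 to 2.27 and 2.83 to 4.47). Against *Polr2a*, which itself ranged from 17.2 to 72.3 CPM, the *Gapdh* ratio in Ctrl TFs was 13.0 to 21.0 in 20% O2 and 34.2 to 85.7 in 1% O2. Against *Hprt* it was 6.97 to 7.15 and 11.97 to 13.2, the smallest relative spread of the 6 ratios computed in Ctrl TFs.

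**Figure D4:**
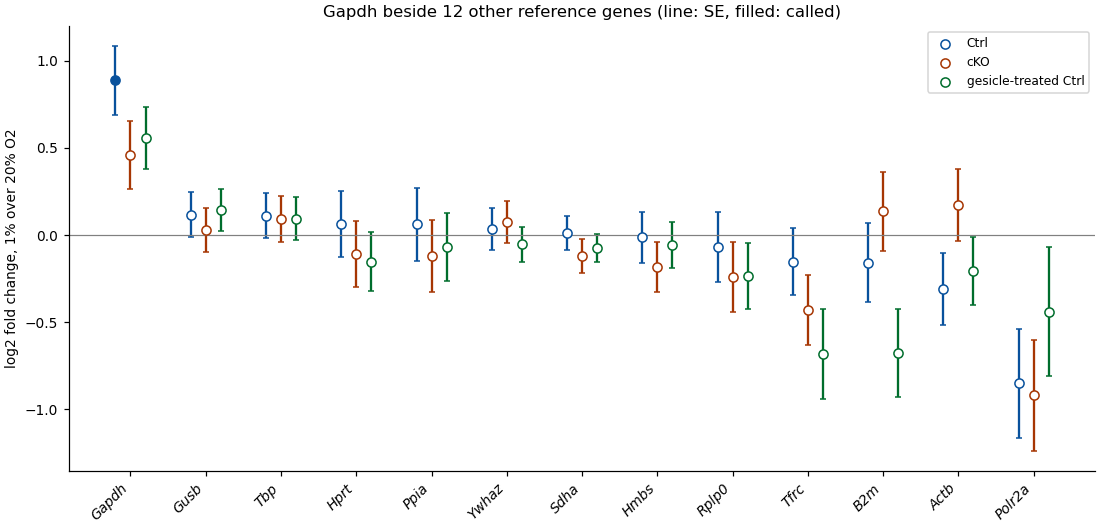
Log2 fold change in 1% against 20% O2 (y axis, with the SE as a line) of *Gapdh* and 12 other reference genes (x axis) in the 3 arms, filled where called. *Gapdh* in Ctrl TFs, at 0.89, is the only filled point, and *Polr2a* lies lowest, at -0.85 in Ctrl and -0.92 in cKO TFs.

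Of 22 other glycolytic enzymes, 16 were tested, and 6 were higher in 1% O2 in Ctrl TFs, 4 in cKO TFs and 6 with gesicles, none lower, with medians of 0.52, 0.52 and 0.41. *Eno1*, the enolase between *Pgam1* and *Pkm*, rose by 1.09 ± 0.16 in Ctrl TFs (edgeR adjusted p = 0.00367), and *Ldha*, which turns pyruvate into lactate, by 1.76 ± 0.19 (edgeR adjusted p = 4.3e-04). *Eno3*, the muscle enolase, had the lowest value of that list in Ctrl TFs, -0.36 ± 0.32 on the log2 scale, and was not called (edgeR adjusted p = 0.648). Of 7 glucose and lactate transporters, 6 were tested, and 2 were called higher in Ctrl, 2 in cKO and 1 with gesicles, with *Slc16a3*, a lactate exporter, at 6.44 and *Slc16a1* at -0.34 on the log2 scale in Ctrl TFs. *Tigar*, which breaks down fructose 2,6-bisphosphate, was the only tested gene of its list of 3. It was at 10.0 to 10.3 CPM in Ctrl 20% O2 and 5.80 to 8.01 CPM in Ctrl 1% O2, a change of -0.59 ± 0.19 that was not called (edgeR adjusted p = 0.166). In cKO TFs it was called lower, at -0.87 ± 0.20 (edgeR adjusted p = 0.0453), and with gesicles it was not, at -0.63 ± 0.18 (edgeR adjusted p = 0.0806).

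Across the 18 libraries, the 5 enzymes correlated with each other at Pearson r of 0.86 to 0.98 and with *Pfkfb3* at 0.82 to 0.92 (TMM log2 CPM, prior count 2). *Pfkfb4* and *Pfkfb2* correlated with each other at 0.69 and with the enzymes at -0.28 to -0.66. These values are descriptions, since the libraries share groups and O2 levels. Among 12823 genes with a mean of at least 1 CPM, *Ldha* was the gene most like *Tpi1* (r = 0.99), *Pgam1* (0.98) and *Pgk1* (0.98). *Fam162a* and *Aldoa* came next for *Tpi1*, *Aldoa* and *Pgk1* for *Pgam1*, and *Tpi1* and *Aldoa* for *Pgk1*. *Gapdh* was most like *Mif* (0.97), then *Pgam1* and *Aldoa*. The glucose transporter *Slc2a1* was the gene most like *Pkm* (0.97), before *Eno1* and *Epha1*, and the third for *Pfkfb3* (0.95), after the mitochondrial adenylate kinase *Ak4* (0.96) and *Pomt1*. The genes most like the others were *Ankrd13c*, *Htr2a* and *Nbeal2* for *Pfkfb4* (0.88 to 0.91), *Reps2*, *Mob1b* and *Mtcl1* for *Pfkfb2* (0.88 to 0.91) and *Pemt*, *Snhg6* and *Septin10* for *Pfkfb1* (0.73 to 0.79).

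Between genotypes, none of the 9 genes was called. In 20% O2 the background was 0.347%, and the 9 log2 fold changes of cKO against Ctrl TFs ran from -0.74 for *Pfkfb4* to 0.36 for *Tpi1*, with a median of 0.00. *Pfkfb4* was at 6.41 to 12.6 CPM in cKO and 14.5 to 16.6 CPM in Ctrl TFs and *Pfkfb3* at 5.68 to 7.46 CPM against 7.62 to 11.3 CPM, so that both were lower in every cKO library, as were 10.3% of genes tested. Their changes were -0.74 ± 0.24 (edgeR adjusted p = 0.231) and -0.51 ± 0.29 (edgeR adjusted p = 0.412), and limma voom called *Pfkfb4* lower (-0.75, adjusted p = 0.00286). The pericyte and smooth muscle list moved the same way, with its 3 markers summing to 29.3 to 37.7 CPM in cKO and 86.5 to 144 CPM in Ctrl 20% O2. The 8 tendon fibroblast markers summed to 4249 to 9354 CPM in cKO and 10602 to 12629 CPM in Ctrl 20% O2, a sum weighted to the most abundant genes. Their median log2 fold change was 0.12, beside 0.03 over all genes, and none of the 8 was called. *Acta1* was called lower, at 9.32 to 15.0 against 21.99 to 41.8 CPM (-1.28 on the log2 scale, edgeR adjusted p = 0.0449). The part of these lists in the values was not tested.

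In 1% O2 the background was 0.0379%, or 6 genes of 15850, and 1549 genes passed 1.5-fold with an unadjusted edgeR p under 0.05. The enzymes and *Pfkfb3* were all lower on average in cKO TFs, with a median of -0.24 over the 9 genes beside 0.00 over all genes. *Pfkfb3* was at 28.4, 16.3 and 21.4 CPM in cKO against 63.8, 31.6 and 35.3 CPM in Ctrl TFs, and *Pkm* at 2959, 2723 and 2996 against 5187, 3582 and 3563 CPM. For these 2 genes all cKO libraries were below all Ctrl libraries, which held for 15.2% of genes tested. On the log2 scale the differences were -1.002 ± 0.28 for *Pfkfb3* (edgeR adjusted p = 0.207) and -0.51 ± 0.17 for *Pkm* (edgeR adjusted p = 0.219). DESeq2 called *Pfkfb3* at -0.98 (adjusted p = 0.0452), and DESeq2 with the replicate block called it at -0.94 (adjusted p = 2.2e-05). The paper names a paired design in DESeq2, with Ctrl against cKO as its example, but not what pairs the libraries. The replicate number is not known to pair libraries of the 2 genotypes. Limma voom with sample quality weights called *Pfkfb3* at -1.06 (adjusted p = 0.00936) and *Pfkfb4* at -0.67 (adjusted p = 0.014). *Pfkfb3* was called in 3 of 23 alternatives. For the other 4 enzymes the groups overlapped, from -0.15 ± 0.17 for *Tpi1* to -0.26 ± 0.19 for *Pgam1*.

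Gesicle-treated TFs did not differ from Ctrl TFs in 20% O2 by a call in any of the 9 genes (background 0.0247%), and their log2 fold changes lay between -0.21 and 0.19. In 1% O2 none was called either, in a comparison where no gene of 16174 was called (background 0%) and 235 passed 1.5-fold with an unadjusted edgeR p under 0.05. Here 6 of the 9 genes, the 5 enzymes and *Pfkfb3*, were lower in every gesicle library than in every Ctrl library, against 3.35% of all genes. *Pfkfb3*, at 27.1, 22.8 and 13.5 CPM with gesicles and 63.8, 31.6 and 35.3 CPM without, had the largest difference, -1.04 ± 0.30 on the log2 scale (edgeR adjusted p = 1, unadjusted p = 0.00284). The enzymes lay between -0.28 ± 0.18 for *Gapdh* and -0.42 ± 0.15 for *Tpi1*, with unadjusted p from 0.0159 to 0.125 in edgeR. The Ctrl 1% O2 libraries are the same ones that served in the cKO comparison, so the 2 sets of values are not separate evidence. Among them replicate 1 was the highest for all 6 genes, and without it the *Pfkfb3* difference was -0.64 with gesicles and -0.62 in cKO TFs (edgeR adjusted p = 1 and 0.264). The enzymes then lay between -0.096 for *Pkm* and -0.27 for *Pgk1* with gesicles, and between -0.019 for *Tpi1* and -0.31 for *Pkm* in cKO TFs.

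**Figure D5:**
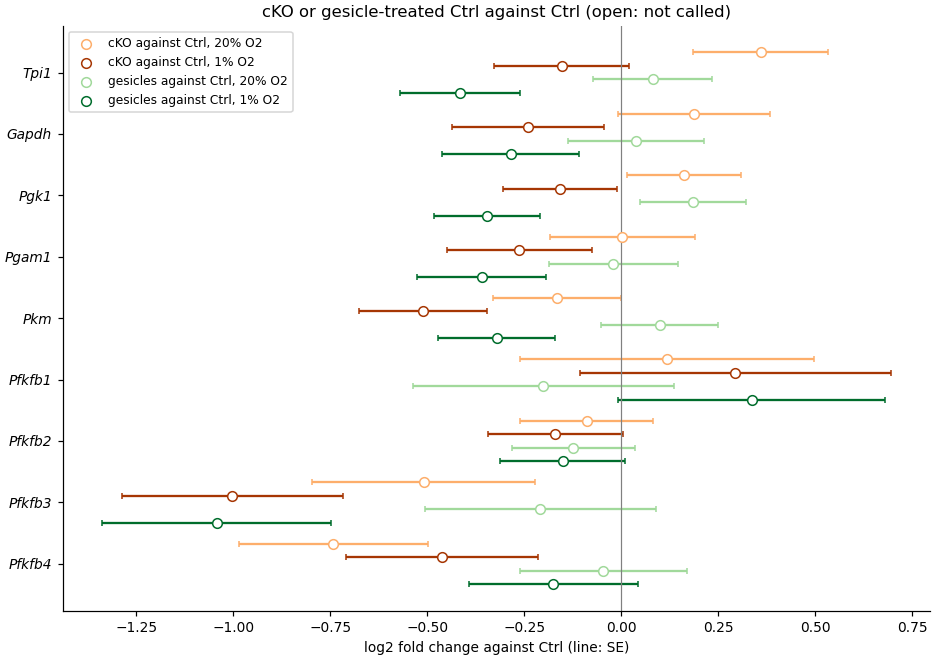
Log2 fold change of cKO or gesicle-treated Ctrl TFs against Ctrl TFs (x axis, with the SE as a line) of each gene (y axis) in 20% and 1% O2, all open because none was called. In 1% O2 the points of *Pfkfb3* lie at -1.002 and -1.04, and those of the 5 enzymes between -0.15 and -0.51.

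The difference between the O2 changes of 2 arms was tested directly as an interaction. No gene of the 15850 was called for genotype (background 0%, with 292 genes past 1.5-fold at an unadjusted edgeR p under 0.05) and none of the 16174 for gesicles (background 0%, with 200 such genes). The 5 enzymes and *Pfkfb3* all had smaller rises in cKO than in Ctrl TFs, by -0.27 ± 0.26 for *Pgam1* to -0.51 ± 0.25 for *Tpi1*, with edgeR adjusted p = 1 and unadjusted p from 0.0584 to 0.335. With gesicles the same 6 genes differed by -0.32 ± 0.25 for *Gapdh* to -0.83 ± 0.42 for *Pfkfb3*, and *Pgk1* (-0.53 ± 0.19) and *Tpi1* (-0.50 ± 0.22) had unadjusted p of 0.0141 and 0.0366 in edgeR. The larger rises in Ctrl TFs are thus not shown to differ from those of the other arms. Both interactions use the same Ctrl libraries, and 1 of them, Ctrl 1% O2 replicate 1, weighed on both. Without it the genotype values were -0.11 for *Pfkfb3*, -0.14 for *Pkm*, -0.11 for *Pgam1*, -0.26 for *Pgk1*, -0.30 for *Gapdh* and -0.37 for *Tpi1*. The gesicle values were then -0.42 for *Pfkfb3*, -0.18 for *Pkm*, -0.16 for *Gapdh*, -0.15 for *Pgam1*, -0.32 for *Tpi1* and -0.44 for *Pgk1*. *Pfkfb1*, *Pfkfb2* and *Pfkfb4* ran from -0.08 to 0.28 for genotype and from -0.13 to 0.54 for gesicles.

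Some of these genes have processed pseudogene copies whose reads an estimated count can split with the parent. Of 15 rows named as such copies of *Tpi1*, *Gapdh*, *Pgk1* and *Pgam1*, 10 had a count. *Pgam1-ps2* was the highest, at 7.75 to 24.1 CPM, and was itself called higher in 1% O2 in Ctrl TFs (1.16 ± 0.20 on the log2 scale, edgeR adjusted p = 0.00996). *Pgk1-rs7* was listed at 0 in 4 libraries (Ctrl 20% O2 replicates 2 and 3, cKO 20% O2 replicate 3 and cKO 1% O2 replicate 3) and at 5.52 to 14.9 CPM in the others. *Gapdh-ps16* was at 0.834 to 2.76 CPM except in cKO 1% O2 replicate 1, where it reached 8.24 CPM. Together the copies came to 0.0276% to 3.80% of the parent's counts for *Pgk1*, 1.48% to 3.29% for *Pgam1*, and at most 0.711% for *Tpi1* and 0.535% for *Gapdh*. Counts of these copies are uncertain, since their sequences are close to those of the parents.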

How the data were processed

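Per the labels, poly-A RNA was sequenced in 151-base pairs. The authors trimmed reads with Cutadapt 4.8, mapped them to GRCm38 with STAR 2.7.8a and deposited RSEM 1.3.3 estimated counts per gene, rounded to whole numbers and not normalized. The table had no columns of other samples. Counts were tested with edgeR 4.0.16 (filterByExpr, TMM, quasi-likelihood). The 12 Ctrl and cKO libraries were fitted together, and all 18 for the gesicle comparisons, each group having its own coefficient. Standard errors were taken from the log2 fold change and its F statistic. The fit was tested on simulated data. The study's tool, DESeq2 1.42.0, limma 3.58.1 voom and other filters, scalings and libraries were alternatives.

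The study's methods give n = 3 mice for the Ctrl and cKO cultures, while the labels do not tie libraries to animals. Mice of different genotype cannot be the same 3 animals, and the paper gives n = 3 per condition for its sequencing. For parallel cultures used to measure ATP, the paper lists more females than males for Ctrl and more males than females for cKO. Sex was not matched to libraries here, and its part in the cKO against Ctrl values was not tested. Libraries with the same number deviated together between O2 levels in Ctrl TFs (r from 0.27 to 0.46) and between Ctrl and gesicle-treated TFs (0.19 to 0.46), so the blocked fit is given there where it changes a call. Genes named besides the 9 and *Hif1a* are the largest and smallest changes of each fixed list, *Eno1*, *Ldha*, the 3 genes most like each member and the 3 pseudogenes with most counts. The values of 1 gene that this rule names are not reported here. The members and lists were chosen with earlier results of these data known. Marker genes, the other splicing factors and *Actb*, *Hprt*, *Tbp* and *Sdha* were named after their values were seen. R 4.3.3 and Python 3.11.15 were used.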

Additional observations from a re-analysis of the deposited data

How the results depend on the processing

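All counts here are of the 9 genes called by edgeR unless another tool is named. In Ctrl TFs the O2 count stayed between 4 and 6 over 25 alternatives. In cKO TFs the 4 became 1 in a fit of the groups of the comparison alone, and 0 to 6 with a library left out. With gesicles the 4 became 2 with the groups alone, and 1 to 4 with a library left out. The 0 for cKO against Ctrl in 20% O2 became 1 with voom weights, and that in 1% O2 became 1 with DESeq2, 1 with DESeq2 and the replicate block, and 2 with voom weights. The cause was not tested. No alternative called a gene in the gesicle comparisons or the interactions. Over all genes, calls ranged from 116 to 1543 around 298 in Ctrl TFs, 84 to 2718 around 333 in cKO TFs, 120 to 882 around 390 with gesicles, 1 to 1585 around 55 and 0 to 1274 around 6 for cKO against Ctrl in 20% and 1% O2, and 0 to 62 around 4 for gesicles in 20% O2. With the replicate block the O2 counts were 5, 3 and 4, and nested in the arm 5, 5 and 4. Same-numbered cKO libraries correlated at 0.09 to 0.37 and gesicle libraries at -0.01 to 0.22 between O2 levels. Differently numbered ones correlated at -0.26 to 0.10 and at -0.29 to 0.24. Whether these numbers mark a shared mouse is not known.

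Of 2124 recomputed log2 fold changes 45 changed sign, and none of these was called in edgeR. *Pfkfb4* for O2 in cKO TFs was -0.18, and -0.38 to 0.078 with a library left out. *Pfkfb1* for O2 with gesicles was -0.0031, and 0.0023 with no filter, 0.0049 with a CPM filter and 0.0079 without the cKO groups in the fit. It was 0.13 with voom weights and -0.18 to 0.16 with a library left out. *Gapdh* for cKO against Ctrl in 20% O2 was 0.19, and -0.0016 with voom weights, -0.091 to 0.34 with a library left out. *Pgam1* for cKO against Ctrl in 20% O2 was 0.0031, and -0.012 with DESeq2, -0.0013 with DESeq2 and the replicate block, -0.012 with RLE factors, -0.016 with no filter, -0.0025 with the groups alone, -0.036 with voom weights, -0.15 to 0.13 with a library left out. *Pfkfb1* for cKO against Ctrl in 20% O2 was 0.12, and -0.052 with thinned counts, -0.10 to 0.42 with a library left out. *Pfkfb2* for cKO against Ctrl in 20% O2 was -0.089, and -0.20 to 0.0036 with a library left out. *Pfkfb1* for the genotype interaction was 0.18, and -0.26 with voom weights, -0.13 to 0.47 with a library left out. *Pfkfb2* for the genotype interaction was -0.081, and -0.17 to 0.030 with a library left out. *Gapdh* for gesicles in 20% O2 was 0.038, and -0.0042 with voom weights, -0.039 to 0.14 with a library left out. *Pgam1* for gesicles in 20% O2 was -0.02, and -0.098 to 0.056 with a library left out. *Pkm* for gesicles in 20% O2 was 0.099, and -0.011 to 0.21 with a library left out. *Pfkfb4* for gesicles in 20% O2 was -0.046, and -0.11 to 0.046 with a library left out. *Pfkfb1* for gesicles in 1% O2 was 0.34, and -0.38 with thinned counts. *Pfkfb1* for the gesicle interaction was 0.54, and -0.22 with thinned counts. *Pfkfb2* for the gesicle interaction was -0.027, and 0.063 with thinned counts, -0.092 to 0.10 with a library left out. The protein identity of the family was not run.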
